A study of Mus musculus with 9 samples.

Results

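The genes for 10 proteins of neutrophil granules and of the maturing neutrophil surface were followed in sorted skin and lesion neutrophils. They were taken by the gene name that the array annotation gives to each probe, which put 14 probes of 10 genes in the set out of 55681 probes and 34797 gene names. Azurophil granule proteins were represented by Mpo, Elane, Prtn3 and Ctsg, specific granule proteins by Camp, Ngp, Ltf and Lcn2, and surface proteins by Cd177 and Itgb2l. All 10 genes had at least 1 probe whose spot was well above background on 8 or 9 of the 9 arrays.

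Neutrophils were sorted as Gr-1bright cells to more than 98% purity from FVB/N mice whose back skin had received the carcinogen DMBA at ages of 6 and 13 weeks and the tumor promoter PMA 2 times a week, starting in week 1 and ending in week 18 to 20. Skin next to papillomas (papilloma skin, 2 arrays), skin next to carcinomas (tumor skin, 2 arrays), papillomas (3 arrays) and tumors (2 arrays) were compared on one-color Agilent mouse arrays, and RNA of each array came from cells pooled over several mice and, for lesions, over many papillomas or tumors. All groups, the skin included, came from mice that had received both agents, so that no untreated skin enters any comparison. Lesions were dissociated with collagenase, dispase and DNase but skin with collagenase alone, so that lesion and digestion cannot be told apart. The comparisons ask whether neutrophils inside a lesion carry other granule transcripts than neutrophils of the adjacent skin, and whether this differs between the papilloma and the tumor stage.

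Neutrophil granules are made in order while the cell matures in the bone marrow. Azurophil granule proteins are transcribed in promyelocytes, specific granule proteins in myelocytes and metamyelocytes, and gelatinase granule proteins later, and the protein stays in the cell long after its mRNA has declined. A granule transcript in a tissue neutrophil therefore tells of transcription and mRNA survival, and not of how much protein the granules hold. PU.1 and the C/EBP factors are known regulators of granule genes.

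The promoters of 7 members, the 4 azurophil genes and Camp, Ngp and Ltf, are given as a description. Whether any motif in them bears on the levels was not tested. The sequences are the 250 bases before the transcription start, read 5′ to 3′ along the gene, from RefSeq on GRCm38.p6. Capitals mark AGGAAGT, the core of the PU.1 motif, in the azurophil genes and TTGCNNAA, a C/EBP motif, in Ngp and Ltf, each searched on both strands.
Mpo, chr11:87793534-87793783, plus strand: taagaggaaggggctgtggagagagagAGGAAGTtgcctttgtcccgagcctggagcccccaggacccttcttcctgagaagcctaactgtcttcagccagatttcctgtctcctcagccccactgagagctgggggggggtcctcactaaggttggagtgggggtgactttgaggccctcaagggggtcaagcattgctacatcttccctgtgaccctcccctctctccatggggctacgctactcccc
Elane, chr10:79886062-79886311, plus strand: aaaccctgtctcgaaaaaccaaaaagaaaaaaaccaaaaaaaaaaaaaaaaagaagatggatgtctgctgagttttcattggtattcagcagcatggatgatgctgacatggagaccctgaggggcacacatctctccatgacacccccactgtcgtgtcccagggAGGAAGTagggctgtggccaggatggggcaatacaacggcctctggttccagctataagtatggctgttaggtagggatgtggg
Prtn3, chr10:79879417-79879666, plus strand: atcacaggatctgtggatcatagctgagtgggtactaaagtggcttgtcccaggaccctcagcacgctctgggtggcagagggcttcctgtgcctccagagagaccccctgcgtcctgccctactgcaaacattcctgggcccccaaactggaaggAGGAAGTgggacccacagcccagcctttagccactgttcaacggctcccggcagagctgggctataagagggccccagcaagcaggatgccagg
Ctsg, chr14:56102575-56102824, minus strand: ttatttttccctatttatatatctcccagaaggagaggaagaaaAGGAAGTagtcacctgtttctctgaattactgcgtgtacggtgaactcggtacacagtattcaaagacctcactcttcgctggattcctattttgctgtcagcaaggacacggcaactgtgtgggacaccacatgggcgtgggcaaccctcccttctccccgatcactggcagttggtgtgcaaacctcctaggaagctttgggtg
Camp, chr9:109849457-109849706, minus strand: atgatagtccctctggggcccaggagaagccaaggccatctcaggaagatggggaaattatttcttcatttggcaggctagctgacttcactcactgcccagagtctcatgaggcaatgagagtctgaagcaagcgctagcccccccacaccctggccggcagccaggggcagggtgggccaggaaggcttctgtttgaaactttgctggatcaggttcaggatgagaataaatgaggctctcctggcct
Ngp, chr9:110419558-110419807, plus strand: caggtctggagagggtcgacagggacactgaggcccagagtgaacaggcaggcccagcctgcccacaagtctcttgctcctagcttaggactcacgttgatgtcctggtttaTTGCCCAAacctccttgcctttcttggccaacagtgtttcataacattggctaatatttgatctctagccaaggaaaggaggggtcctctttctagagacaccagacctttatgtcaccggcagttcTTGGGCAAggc
Ltf, chr9:111019042-111019291, plus strand: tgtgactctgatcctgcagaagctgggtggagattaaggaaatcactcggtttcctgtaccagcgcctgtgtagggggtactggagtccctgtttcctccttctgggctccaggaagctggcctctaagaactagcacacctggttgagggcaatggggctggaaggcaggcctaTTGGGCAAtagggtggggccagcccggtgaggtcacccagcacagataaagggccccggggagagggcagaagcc
AGGAAGT was present in this window of 5 of the 10 members, namely all 4 azurophil genes and, on the opposite strand, Itgb2l, and in 7.69% of 32851 promoters of the same length. It lay 223 bases before the start in Mpo, 84 in Elane, 94 in Prtn3 and 206 in Ctsg. TTGCNNAA was present in 3 of the 10, Ngp with 2 matches and Ltf and Lcn2 with 1 each, and in 9.56% of the promoters, and the windows of Camp and Cd177 held neither motif. Both motifs were chosen after the sequences had been read, so that these counts are a description.

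The array sees each gene through 60-base probes, and 4 of them are given because they report genes the results turn on. Positions are on mm9, the build of the array annotation, and the targets of the Prtn3 and Ngp probes stretch over 817 and 549 bases of the genome, so that they cross splice junctions.
Mpo, chr11:87615121-87615180, plus strand: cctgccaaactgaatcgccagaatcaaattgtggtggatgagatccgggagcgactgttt
Prtn3, chr10:79343869-79344685, plus strand: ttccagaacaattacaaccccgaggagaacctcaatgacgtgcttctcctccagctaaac
Ngp, chr9:110324266-110324814, plus strand: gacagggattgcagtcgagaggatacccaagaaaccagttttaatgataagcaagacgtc
Ltf, chr9:110942873-110942932, plus strand: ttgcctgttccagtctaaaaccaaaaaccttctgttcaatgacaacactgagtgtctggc
Camp, Ngp and Ltf lie in that order within 1193032 bases of chromosome 9, measured between their probes, and the Prtn3 and Elane probes lie within 7093 bases of chromosome 10.

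Values are log2 levels from the table of 1 value per probe and array that the authors deposited, and a gene's value is the median over its probes. A gene was called where the limma p adjusted over 34797 genes was at most 0.05, the log2 fold change at least 1 in size and the mean log2 level at least 6. Papilloma skin 1, tumor skin 1 and tumor 1 had a compressed signal range on the scanner, with spike-in slopes of 0.678 to 0.894 against 1.04 to 1.06 on the other 6 arrays, and had 90.7 to 95.04% of probes well above background against 44.2 to 64.2%. Across probes the papilloma skin 1 column of the table correlated with the scanner file of its own label at a Spearman's rho of only 0.587, and that of tumor 1 at 0.825, and both ranked closest to the file of tumor 2, at 0.923 and 0.946. For papilloma 2 the nearest file was that of papilloma 3 and the reverse, an exchange that would not alter a group mean. As these arrays lay on slides 2 and 3, it could alter the differences within slide 2 and the fits with slide or replicate number. Results are therefore given also without papilloma skin 1 and tumor 1 and from the quantile normalized scanner files.

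Transcripts of the specific granule proteins Camp, Ngp and Ltf were lower in neutrophils of both lesions than in those of the adjacent skin, by 4.95 to 17.5 times. Of the 10 members, 7 were called lower in papilloma than in papilloma skin, where 1.17% of all genes were called lower. In tumor versus tumor skin 4 members were called lower, where 1.61% of all genes were. No member was called higher in either comparison, against 2.43 and 2.75% of all genes. All arrays of papilloma lay below all of papilloma skin for 8 of 10 members and above for 1, against 18.4 and 19.9% of all genes, and all of tumor below all of tumor skin for 7 of 10 and above for 0, against 26.2% of all genes each way. Without papilloma skin 1 the 7 calls in papilloma became 4, and with slide as a term, or with the replicate number as a block, only Camp and Ngp were called in either comparison. Arrays of the same number shared a slide, except for tumor skin 2 on slide 3, so that these 2 fits are nearly the same adjustment. The median log2 fold change of the 10 members was -1.83 in papilloma and -1.12 in tumor, against -0.01 in each comparison over all genes. In these bulk samples, fewer cells that hold a transcript and less of it per cell cannot be told apart.

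**Figure D1:**
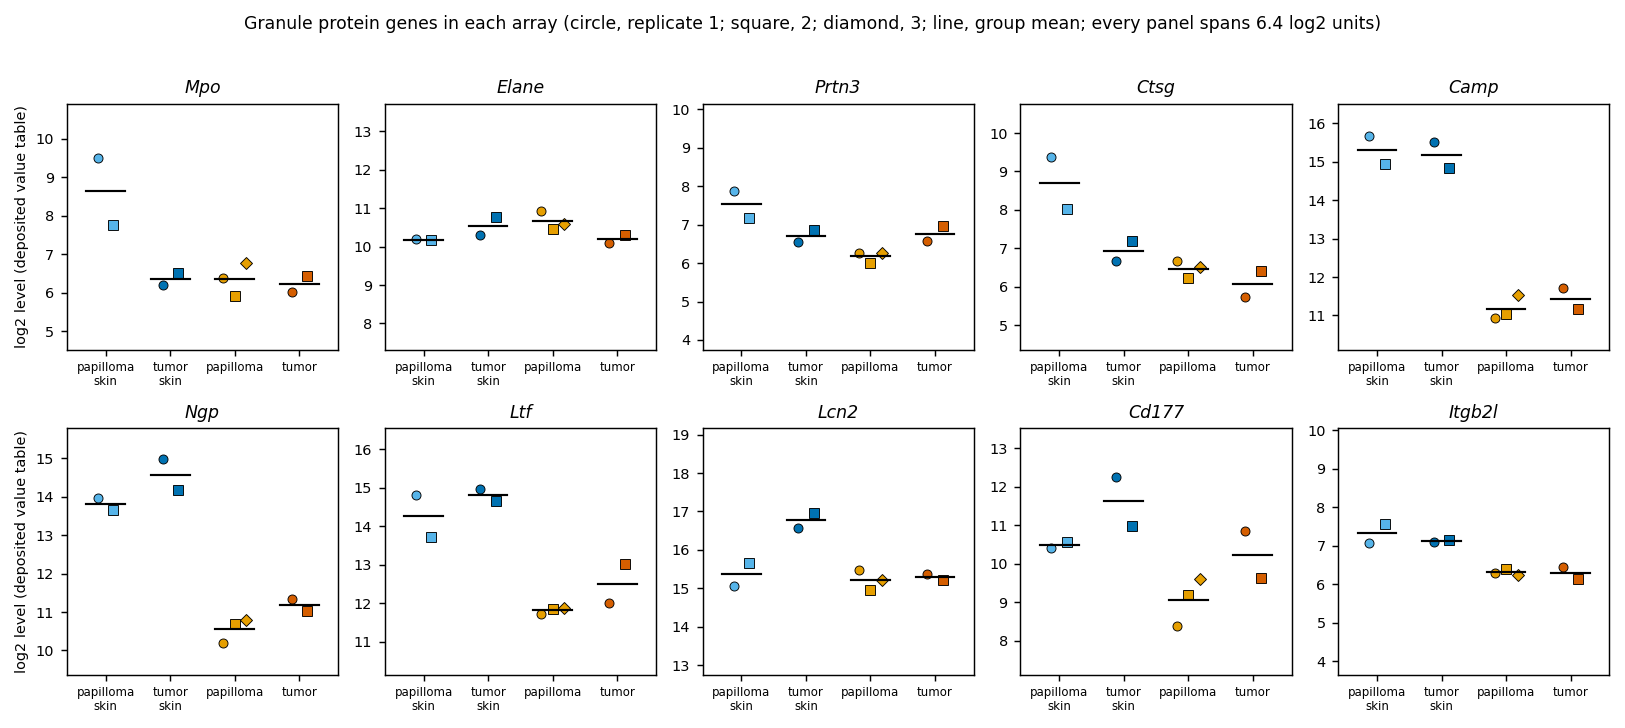
Log2 level (y axis, deposited value table) of the 10 genes in each of the 9 arrays, by group (x axis), with points for arrays, a horizontal line for the group mean and the same span of 6.4 log2 units in every panel. The skin arrays of Camp, Ngp and Ltf sit above all lesion arrays, Mpo, Prtn3 and Ctsg are highest in papilloma skin, and Elane stays between 10.11 and 10.93.

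Camp, which encodes the cathelicidin antimicrobial peptide, had log2 levels of 15.68 and 14.93 in papilloma skin, 15.50 and 14.83 in tumor skin, 10.94, 11.04 and 11.54 in papilloma and 11.72 and 11.16 in tumor. Every skin array lay above every lesion array. The log2 fold change was -4.13 (SE 0.318, adjusted p = 0.000424) in papilloma versus papilloma skin and -3.72 (SE 0.348, adjusted p = 0.00138) in tumor versus tumor skin, or 17.5 and 13.2 times lower. Both Camp probes, whose annotated targets share 40 bases of the genome, gave similar fold changes, of -4.12 and -4.14 in papilloma and -3.88 and -3.57 in tumor.

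Ngp, neutrophilic granule protein, a relative of the cystatins and cathelicidins, had levels of 13.98 and 13.66 in papilloma skin, 14.97 and 14.16 in tumor skin, 10.18, 10.68 and 10.79 in papilloma and 11.33 and 11.02 in tumor. The skin and lesion arrays did not overlap. It fell by 3.27 on the log2 scale in papilloma (SE 0.276, adjusted p = 0.000588) and by 3.39 in tumor (SE 0.302, adjusted p = 0.00119).

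Ltf, the iron-binding lactotransferrin, had levels of 14.81 and 13.74 in papilloma skin, 14.98 and 14.66 in tumor skin, 11.72, 11.85 and 11.87 in papilloma and 12.01 and 13.01 in tumor. The groups of skin and lesion did not overlap, and tumor 2 came closest to the skin. The log2 fold change was -2.46 (SE 0.359, adjusted p = 0.00627) in papilloma and -2.31 (SE 0.393, adjusted p = 0.0116) in tumor, and the call in tumor was lost without tumor skin 1 (-2.15, adjusted p = 0.0525) or tumor 1 (-1.81, adjusted p = 0.0520).

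The falls of Camp, Ngp and Ltf had the same direction and no overlap of groups in the scanner files, with log2 fold changes of -3.60, -3.45 and -2.26 in papilloma and -4.67, -3.37 and -2.59 in tumor. No gene on the array was called there in any comparison, so that the adjusted p was 0.267 to 0.321 for these 3 genes in papilloma and 0.274 to 1.00 in tumor. Within slide 1 of the table, which held the first array of each group, Camp differed by -4.74 and Ngp by -3.79 between papilloma and papilloma skin, and by -3.78 and -3.64 between tumor and tumor skin. Within slide 2, which held no tumor skin array, they differed by -3.89 and -2.98 between papilloma and papilloma skin. Ltf differed there by -3.09 within slide 1 and -1.89 within slide 2, and by -2.97 between tumor and tumor skin within slide 1. Without papilloma skin 1 and tumor 1 the fold changes were -3.76, -3.11 and -1.92 in papilloma and -4.00, -3.55 and -1.81 in tumor, and all 6 were called.

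Lcn2, lipocalin 2, which binds bacterial siderophores and is also induced in inflamed tissue, was called lower in tumor like the other specific granule genes. It did not follow them in papilloma versus papilloma skin in the table. Its levels were 15.07 and 15.67 in papilloma skin, 16.57 and 16.97 in tumor skin, 15.48, 14.95 and 15.23 in papilloma and 15.38 and 15.23 in tumor. Tumor skin lay above all other arrays, and the other groups overlapped. It was lower in tumor than in tumor skin by a log2 fold change of -1.46 (SE 0.254, adjusted p = 0.0122), with -1.20 and no overlap in the scanner files. Papilloma and papilloma skin differed by -0.15 (95% interval -0.68 to 0.39, adjusted p = 0.778), and by -0.55 with no overlap in the scanner files. The call in tumor was lost without tumor skin 2 (-1.26, adjusted p = 0.0586) and without tumor 2 (-1.39, adjusted p = 0.0895).

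**Figure D2:**
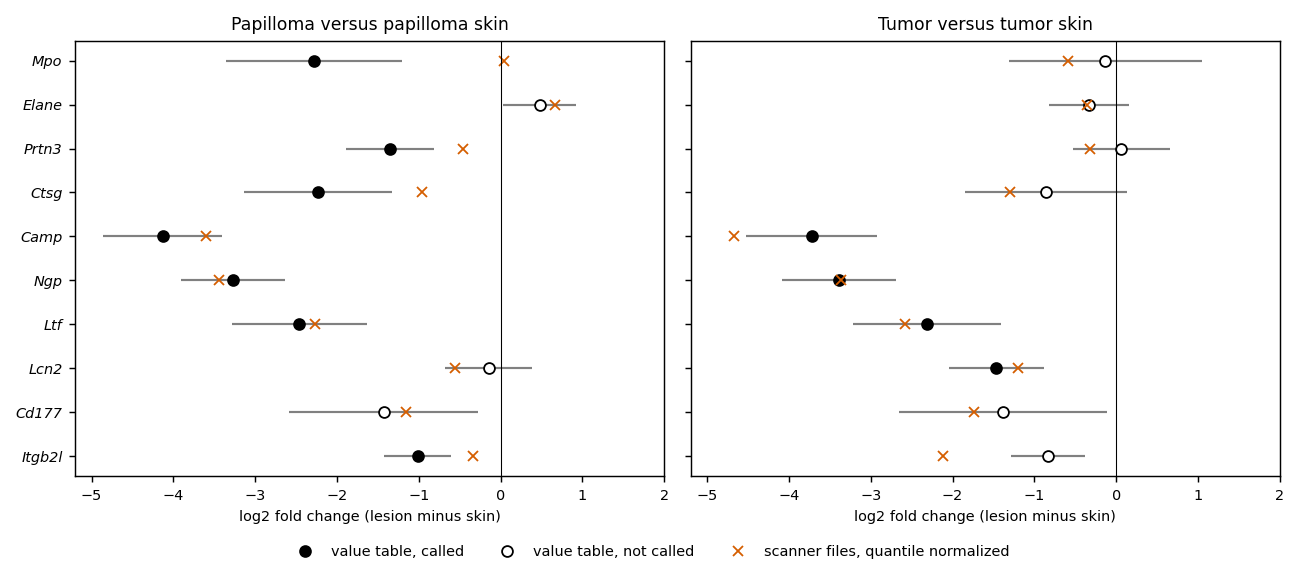
Log2 fold change (x axis, lesion minus skin) of the 10 genes, papilloma against papilloma skin on the left and tumor against tumor skin on the right, with circles and 95% intervals from the deposited value table (filled where called) and crosses from the quantile normalized scanner files. Camp, Ngp and Ltf lie left of -2 in both panels and both sources, and the crosses of Mpo, Prtn3 and Ctsg lie right of the circles in papilloma.

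Among the azurophil granule genes, Mpo, Prtn3 and Ctsg were called lower in papilloma than in papilloma skin, and no azurophil gene was called in tumor versus tumor skin. These falls rested on the papilloma skin columns, above all on papilloma skin 1.

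Mpo, myeloperoxidase, which makes hypochlorous acid, had levels of 9.51 and 7.77 in papilloma skin, 6.21 and 6.51 in tumor skin, 6.38, 5.93 and 6.77 in papilloma and 6.01 and 6.44 in tumor. Papilloma skin lay above all other arrays, and the other 3 groups overlapped. The log2 fold change was -2.28 (SE 0.466, adjusted p = 0.0243) in papilloma and -0.13 (SE 0.511, adjusted p = 0.901) in tumor. Without papilloma skin 1 it was -1.41 in papilloma (adjusted p = 0.0722), and the call was also lost without any 1 of the 3 papilloma arrays, at adjusted p of 0.0503 to 0.0713.

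The Mpo probe whose sequence is given above was well above background on 4 of the 9 arrays and on no papilloma array. Of these, papilloma skin 1, tumor skin 1 and tumor 1 had the compressed signal range, with 90.7 to 95.04% of all probes well above background. Tumor 1 passed at a level of 5.07, whereas papilloma arrays at 5.23 and 5.82 did not. By this probe the log2 fold change in papilloma was -2.28 (limma adjusted p = 0.0210, adjusted over all probes). Its levels were 8.48 in papilloma skin 1, 6.82 in papilloma skin 2, and 5.23, 5.05 and 5.82 in papilloma. The other Mpo probe, above background on all 9, had a log2 fold change of -2.28 in papilloma and 0.39 in tumor. In the scanner files the probes parted, at -1.38 for the first and 1.47 for the other in papilloma.

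Ctsg, cathepsin G, a serine protease of the azurophil granule, had levels of 9.38 and 8.03 in papilloma skin, 6.67 and 7.20 in tumor skin, 6.67, 6.23 and 6.52 in papilloma and 5.74 and 6.41 in tumor. Each lesion lay below its skin, and the papilloma skin arrays were the highest. The log2 fold change was -2.23 (SE 0.393, adjusted p = 0.0135) in papilloma and -0.86 (SE 0.430, adjusted p = 0.244) in tumor. Without papilloma skin 1 it was -1.55 in papilloma (adjusted p = 0.0522).

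Prtn3, proteinase 3, had levels of 7.88 and 7.17 in papilloma skin, 6.55 and 6.85 in tumor skin, 6.26, 6.01 and 6.26 in papilloma and 6.56 and 6.97 in tumor. Papilloma skin was highest and papilloma lowest, while tumor skin and tumor overlapped. The log2 fold change was -1.35 (SE 0.234, adjusted p = 0.0129) in papilloma and 0.06 (95% interval -0.53 to 0.65, adjusted p = 0.907) in tumor, and without papilloma skin 1 it was -0.99 in papilloma (adjusted p = 0.0655).

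Elane, neutrophil elastase, whose gene neighbors Prtn3, was the azurophil gene that did not show the pattern. Its levels were 10.19 and 10.16 in papilloma skin, 10.29 and 10.78 in tumor skin, 10.93, 10.46 and 10.58 in papilloma and 10.11 and 10.30 in tumor. The papilloma arrays lay above those of papilloma skin, by a log2 difference of 0.48 that was not called (SE 0.194, 95% interval 0.03 to 0.93, adjusted p = 0.197). In tumor versus tumor skin, where the groups overlapped, the difference was -0.33 (95% interval -0.82 to 0.16).

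Both sources disagreed on the azurophil genes in papilloma skin 1. The scanner file of that array gave Mpo 3.66, Prtn3 4.75 and Ctsg 6.45 after quantile normalization, where the table gave 9.51, 7.88 and 9.38, while papilloma skin 2 had 7.10, 7.09 and 7.63. With that array the scanner files gave log2 fold changes of 0.05 for Mpo, -0.46 for Prtn3 and -0.97 for Ctsg in papilloma versus papilloma skin, so that the direction of Mpo turned. On the 6 arrays of full spike-in slope the scanner files gave -1.89 for Mpo, -1.96 for Prtn3 and -1.87 for Ctsg, with 1 papilloma skin array left and adjusted p of 0.250 to 0.297. Papilloma skin 2 thus lay above every papilloma array for all 3 genes in the table and in the scanner files, and which source holds for papilloma skin 1 was not tested. Within slide 1 and slide 2 the table gave -3.13 and -1.84 for Mpo, -2.71 and -1.80 for Ctsg and -1.62 and -1.16 for Prtn3, where the scanner files gave 1.17 and -1.18, -0.13 and -2.11, and 0.31 and -1.20.

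**Figure D3:**
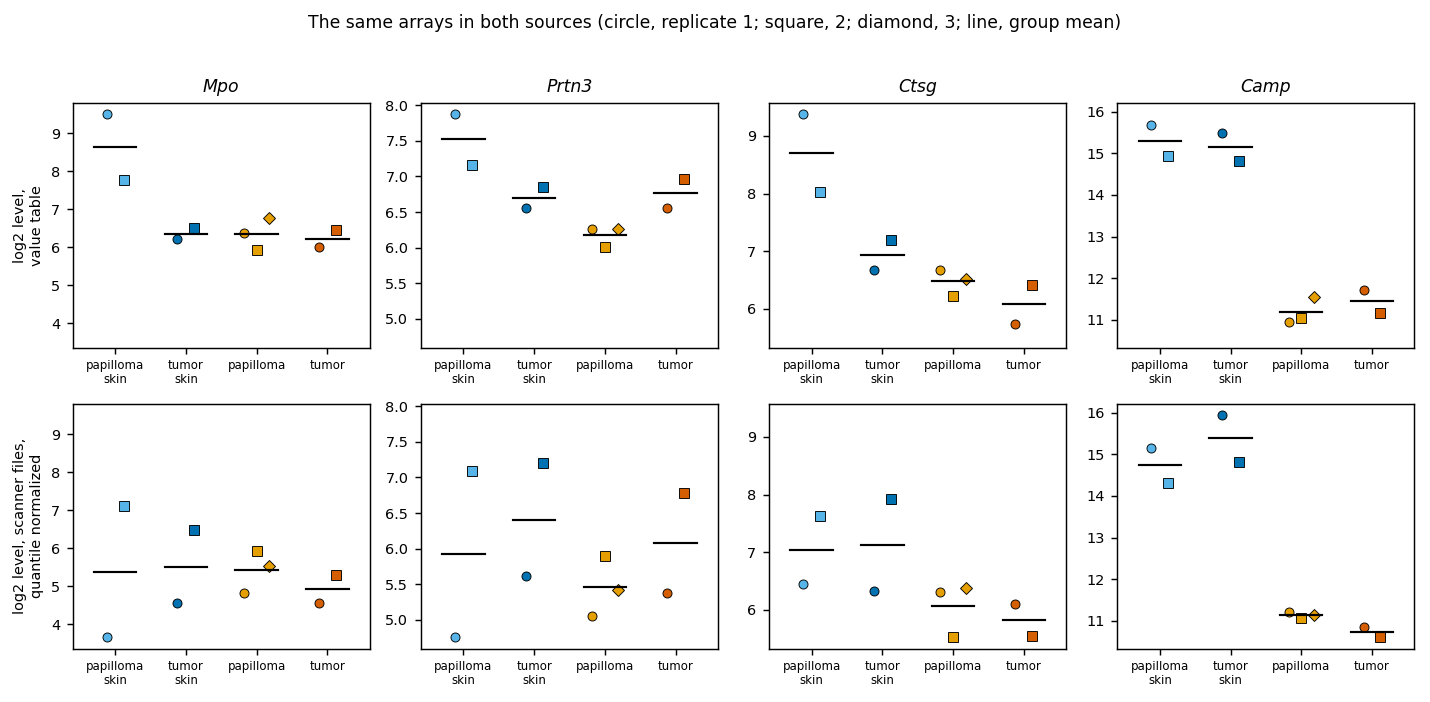
Log2 level (y axis) of Mpo, Prtn3, Ctsg and Camp in each array by group (x axis), in the deposited value table (upper row) and in the quantile normalized scanner files (lower row), with points for arrays and lines for group means. Papilloma skin 1 (circle) is the highest array for Mpo, Prtn3 and Ctsg in the table and the lowest for Mpo and Prtn3 in the scanner files, whereas Camp separates skin from lesion in both.

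Of the surface genes, Cd177 encodes a glycosylphosphatidylinositol-anchored glycoprotein of neutrophils and Itgb2l a beta integrin related to Itgb2. Cd177 had levels of 10.40 and 10.57 in papilloma skin, 12.26 and 10.98 in tumor skin, 8.38, 9.19 and 9.61 in papilloma and 10.84 and 9.63 in tumor. Each lesion lay below its skin, with tumor 1 close to tumor skin 2. The log2 fold changes of -1.43 (SE 0.502, adjusted p = 0.142) and -1.38 (SE 0.550, adjusted p = 0.152) were not called in papilloma or tumor. In tumor single arrays moved the value, which was -0.75 without tumor skin 1, -0.78 without tumor 2 and -2.02 without tumor skin 2. In the scanner files papilloma and papilloma skin overlapped for Cd177, at -1.16, and tumor lay below tumor skin, at -1.74.

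Itgb2l had levels of 7.06 and 7.58 in papilloma skin, 7.09 and 7.15 in tumor skin, 6.29, 6.39 and 6.24 in papilloma and 6.45 and 6.13 in tumor. All skin arrays lay above all lesion arrays. It was called in papilloma, with a log2 fold change of -1.01 (SE 0.178, adjusted p = 0.0133), and had an adjusted p of 0.0345 in tumor with a log2 fold change of -0.83 (SE 0.195), under the fold minimum. The call in papilloma was lost without papilloma skin 2 (-0.76, adjusted p = 0.0749) or papilloma 3 (-0.98, adjusted p = 0.0562).

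The 3 Itgb2l probes disagreed. The probe A_55_P2012979 gave -1.40 (adjusted p = 0.0202, adjusted over all probes) in papilloma and -1.98 (adjusted p = 0.00733) in tumor, A_55_P1966359, which is the median of the 3, gave -1.01 and -0.83, and A_55_P1966352, well above background on 1 of the 9 arrays, gave -0.17 and -0.45. In the scanner files papilloma and papilloma skin overlapped for the gene, at -0.33, and tumor lay below tumor skin, at -2.12.

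**Figure D4:**
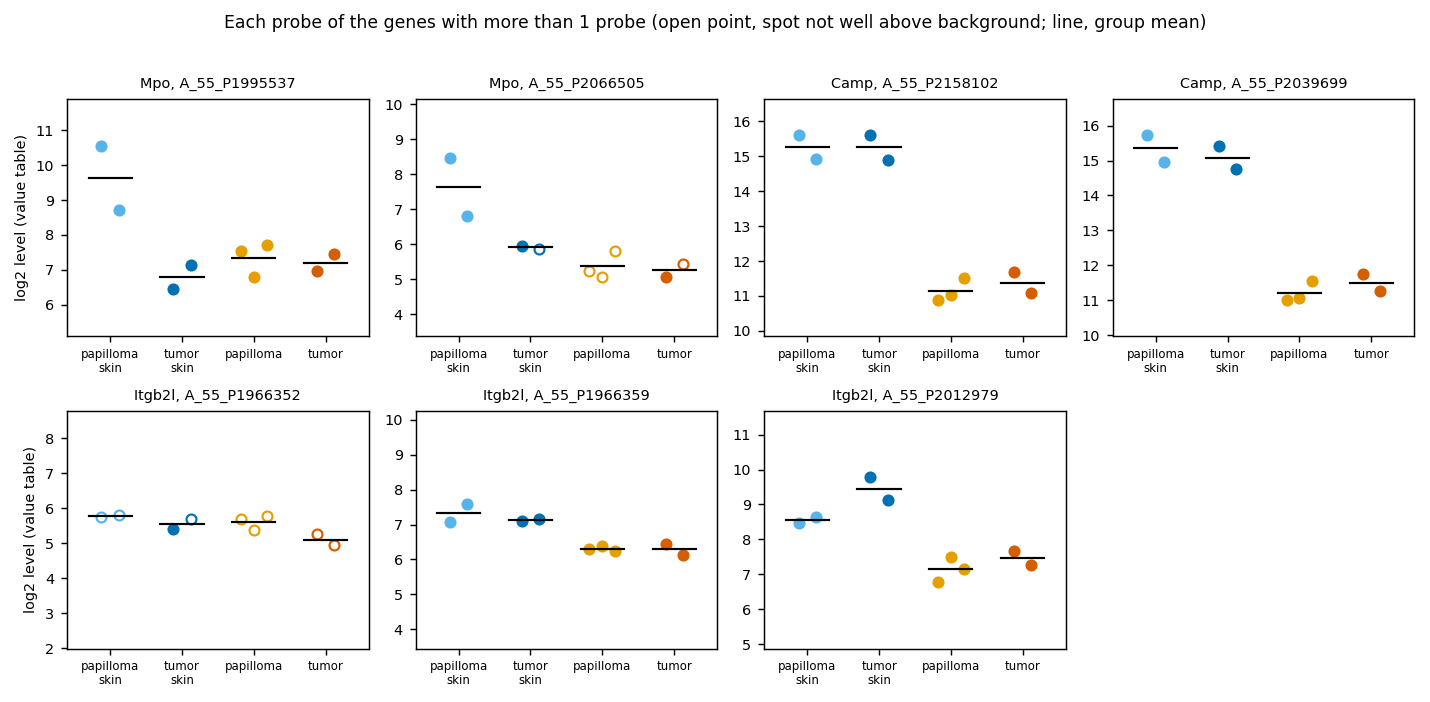
Log2 level (y axis, deposited value table) of each probe of Mpo, Camp and Itgb2l in each array by group (x axis), where open points were not well above background and lines are group means. The probes of Camp repeat each other, the second Mpo probe is at background in all papilloma arrays, and 1 of the 3 Itgb2l probes is at background on 8 of 9 arrays.

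No member was called between the stages. In tumor versus papilloma 0 of 10 were called, where 0.606% of all genes were, and 3 members had an unadjusted p under 0.05. The log2 differences ran from -0.45 for Elane (95% interval -0.90 to -0.0044) to 1.18 for Cd177 (0.02 to 2.33), and Prtn3, Ngp, Ltf and Cd177 were higher in both tumor arrays than in any papilloma array, as 18.9% of all genes were, and Elane was lower, as 17.9% were. In the scanner files only Ngp stayed higher without overlap, at 0.71, while Prtn3, Ltf and Cd177 overlapped. Elane and Camp lay below all papilloma arrays there, at -0.53 and -0.42, where the table had 0.27 for Camp.

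In tumor skin versus papilloma skin 0 of 10 were called, where 0.376% of all genes were, and 5 had an unadjusted p under 0.05. Mpo, Prtn3 and Ctsg lay lower in both tumor skin arrays, as 25.2% of all genes did, and Elane, Ngp, Lcn2 and Cd177 higher, as 24% did. Lcn2 had a log2 difference of 1.40 (SE 0.254, adjusted p = 0.0518), and Mpo and Ctsg had differences of -2.28 (SE 0.511, adjusted p = 0.0796) and -1.77 (SE 0.430, adjusted p = 0.0912). In the scanner files Mpo and Ctsg overlapped between these groups, at 0.14 and 0.08, as did Prtn3, Elane and Ngp. Lcn2 was higher there by 0.69 with no overlap, as were Cd177 by 1.34 and Ltf by 0.72. Without papilloma skin 2, Mpo was called at -3.15 (adjusted p = 0.0499), a fit in which papilloma skin 1 is the only array of its group.

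The lesion effect itself was compared between the stages by the difference of both contrasts. It was called for 0 of 10 members and for 0.0891% of all genes, and 5 members had an unadjusted p under 0.05. The difference was 2.15 for Mpo (95% interval 0.56 to 3.74, adjusted p = 0.248), 1.41 for Prtn3 (0.61 to 2.21, adjusted p = 0.174) and -1.32 for Lcn2 (-2.11 to -0.52, adjusted p = 0.187). For Camp it was 0.41 (-0.68 to 1.49), for Ngp -0.12 (-1.07 to 0.82) and for Ltf 0.15 (-1.08 to 1.38). The scanner files gave -0.63 for Mpo, 0.14 for Prtn3, -0.65 for Lcn2, -1.07 for Camp, 0.08 for Ngp and -0.32 for Ltf, so that the direction turned for Mpo, Camp, Ngp and Ltf.

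The members fell into profiles across the 9 columns, which share groups, slides and normalization, so that the following correlations are a description. Camp, Ngp and Ltf moved together, with Pearson's r of 0.94 to 0.98 among them, and Mpo, Prtn3 and Ctsg did so with 0.85 to 0.96. Mpo, Prtn3 and Ctsg were all highest in papilloma skin 1, where the sources disagreed on them, and r without that column was not computed. Elane was at -0.20 to -0.48 with the other azurophil genes. Itgb2l was at 0.91 with Camp and Cd177 at 0.85 with Ngp, and Lcn2 was at 0.57 to 0.67 with the other specific granule genes.

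Of 2944 other genes with a mean level of at least 6 and an SD of at least 0.5 over the columns, those most like the mean profile of the specific granule members were Gpx1, Ppp1ca, Flna, Padi4 and Ap1g2, at r of 0.98 to 0.99 over 9 columns. Padi4, the enzyme that citrullinates histones in neutrophils, had log2 fold changes of -2.08 in papilloma and -1.78 in tumor. Most like the azurophil profile were Gm14411, Msr1, Suox, Gsg1 and Dnajc15, at 0.96 to 0.97. Msr1, a macrophage scavenger receptor, had -1.51 in papilloma and -0.13 in tumor. Being chosen by likeness over the same columns, these genes restate the profiles and are no separate result.

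Some other genes of specific granule proteins were lower in lesions as well. Of 13 on the array, 4 were called lower in papilloma and 6 in tumor, where 1.17 and 1.61% of all genes were. Called higher were 0, against 2.43 and 2.75% of all genes. The median log2 fold changes were -0.80 and -1.08 in the table and -0.37 and -1.27 in the scanner files. In papilloma, Olfm4, Slpi and Plaur lay above papilloma skin in all arrays, at 0.80 (adjusted p = 0.0511), 0.17 and 0.67, and were not called. Mmp8, neutrophil collagenase, had -1.95 (adjusted p = 0.00461) and -1.92 (adjusted p = 0.00726), and Pglyrp1, a peptidoglycan-binding protein, -1.35 (adjusted p = 0.0233) and -2.56 (adjusted p = 0.00323), and for both the groups did not overlap in either source. Cybb, the membrane subunit of the NADPH oxidase, had -2.10 and -2.23 in the table, but 0.03 in papilloma in the scanner files. Hp, haptoglobin, was called in papilloma, at -1.27, and Chi3l3, Ceacam10 and Chi3l1 in tumor, at -2.30, -2.09 and -1.15.

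Other azurophil and lysosomal genes moved both ways. Of 12 on the array, 3 were called higher and 4 lower in papilloma, and 3 higher and 3 lower in tumor. Over all genes 2.43% were called higher and 1.17% lower in papilloma, and 2.75 and 1.61% in tumor. The lysozyme genes Lyz2 and Lyz1, whose products are found in several granule types and in macrophages and whose sequences are closely alike, had -2.98 and -2.23 in papilloma and -1.74 and -1.47 in tumor. Cd63, a tetraspanin of the granule membrane and among those called higher in both, had 1.41 (adjusted p = 0.00184) in papilloma and 1.46 (adjusted p = 0.00316) in tumor. Ctsc, cathepsin C, which activates the azurophil serine proteases, was called at -1.50 (adjusted p = 0.0466) in papilloma, but had 0.01 in the scanner files, and Man2b1, a lysosomal mannosidase, was called at -1.06 and -1.35.

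**Figure D5:**
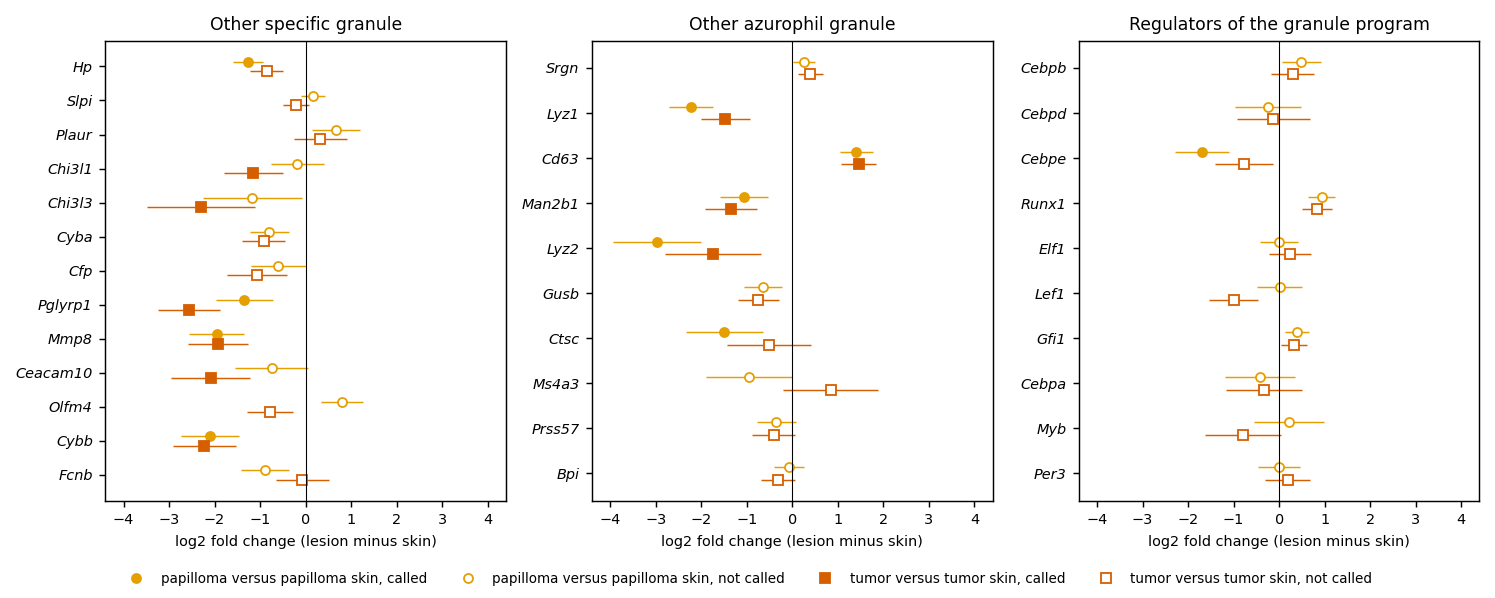
Log2 fold change with 95% interval (x axis, lesion minus skin, deposited value table) of other specific granule genes, 10 of the 12 other azurophil granule genes and regulators of the granule program, each ordered by mean level, in papilloma (circles) and tumor (squares), filled where called. Called specific granule genes all lie left of 0, called azurophil genes lie on both sides, and Cebpe is the regulator called.

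Gelatinase granule and secretory vesicle genes, the last to be made, gave 0 of 12 called in both comparisons, with 3.6 and 4.36% of all genes called in either direction. Cd14 and Adam8 had log2 fold changes of 0.31 and 0.48 in papilloma and 0.23 and -0.06 in tumor, and Retnlg, with the highest mean level of the list after Cd14, had -0.88 (adjusted p = 0.00523) and -0.94 (adjusted p = 0.00624), under the fold minimum. Of 10 regulators of the granule program, Cebpe, the factor needed for specific granules, was called in papilloma, at -1.70 (SE 0.254, adjusted p = 0.00689), and had -0.78 (SE 0.279, adjusted p = 0.119) in tumor. Cebpb and Cebpd, the regulators of the highest level, had 0.49 and -0.25 in papilloma and 0.30 and -0.13 in tumor. Runx1 had 0.93 (adjusted p = 0.00493) and 0.83 (adjusted p = 0.0111), under the fold minimum, with each lesion above its skin.

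Of 7 inhibitors of granule enzymes, Cst7, cystatin F, was called lower in both comparisons, at -1.74 and -1.69, and Serpina1a, an alpha-1-antitrypsin gene of a family of near-identical copies, higher, at 1.75 and 1.86. In the scanner files Cst7 averaged 8.08 (SD 1.52) in papilloma skin, 7.48 in papilloma, 8.53 in tumor skin and 6.79 in tumor. Of 10 genes known from late neutrophils, Ccl6 was called lower in both, at -1.86 and -1.40, and Ly6g lower in tumor, at -2.09 (papilloma -1.08, adjusted p = 0.0720), while Csf3r had -0.09 and -0.15. Of 10 proliferation genes 0 were called in papilloma and Pcna, at 1.13, was called higher in tumor. The shares over all genes were 1.17 and 1.61% called lower in papilloma and tumor, and 2.43 and 2.75% called higher. Cell cycle genes are expressed in the proliferating precursors that make azurophil granules.

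Markers of other cells also differed between lesion and skin, some lower and some higher in lesions, and their part in the results was not tested. Over all genes 1.17 and 1.61% were called lower in papilloma and tumor, and 2.43 and 2.75% higher. The mean log2 level of 8 eosinophil markers was 8.88 to 9.23 in papilloma skin, 8.30 to 8.40 in tumor skin, 7.17 to 7.53 in papilloma and 7.15 to 7.54 in tumor, with 4 of 8 called lower in each lesion, namely Ear1, Ear2, Il5ra and Ccr3, Siglec5 called higher in tumor, and the granule genes Epx and Prg3 under the level minimum. Papilloma skin was the highest group for this eosinophil list, as for Mpo, Ctsg and Prtn3. The 8 monocyte and macrophage markers had 9.22 to 9.97 in papilloma skin, 8.74 to 8.96 in tumor skin, 8.50 to 9.22 in papilloma and 8.21 to 8.34 in tumor, where papilloma 3 reached the level of papilloma skin 2. Of these 8 markers, 1 was called lower in each lesion, Emr1, a macrophage surface receptor, at -3.01 and -2.10, and 0 higher. In the scanner files Emr1 averaged 9.92 (SD 1.80) in papilloma skin, 8.66 in papilloma, 10.59 in tumor skin and 8.44 in tumor. All papilloma arrays lay above all papilloma skin arrays for 3 of 8, Cd68, C1qa and C1qb, and below for 3, against 19.9 and 18.4% of all genes. The median of the 8 markers in papilloma was -0.54 in the table and 0.64 in the scanner files. The 10 keratinocyte markers had 7.60 to 8.34 in skin and 9.61 to 11.6 in lesions, with 4 and 5 called higher, and of 4 endothelial markers 3 and 1 were called higher. Of 5 B and plasma cell markers 1 and 2 were called lower, among them Igj, the joining chain of secreted antibody, at -6.71 and -7.13. Of 5 T cell markers 0 were called in papilloma and 1 was called lower in tumor. Of 6 fibroblast markers 0 were called in papilloma and 1 lower in tumor, Dcn, at -1.38 in the table and 0.27 in the scanner files, while the median of the 6 was 0.58 and 0.54 in the table and 2.61 and 2.33 in the scanner files. Of 7 mast cell and basophil markers 1 was called higher in papilloma, Mcpt8, and 0 in tumor. The 8 neutrophil markers had 14.2 to 15.3 in all arrays, with 0 of 8 called in papilloma and 1 of 8 in tumor, Ly6g, whose product is part of what the Gr-1 antibody of the sort binds.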

How the data were processed

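Neutrophil RNA was hybridized to 9 one-color arrays on 3 slides. The authors deposited scanner files with a background-subtracted fluorescence intensity per spot, not scaled between arrays, and a value table on the log2 scale, with column medians of 6.08 to 6.12. Per the study's methods, data were quantile normalized with limma and corrected for the chip with ComBat. Whether the table is that output is not stated. If so, its p-values do not count the degrees of freedom of the slides. RefSeq gave the promoters (GRCm38.p6).

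Groups were taken from the labels. limma 3.58.1 in R 4.3.3 was fitted to all 9 columns, with 5 residual degrees of freedom, and p-values were adjusted over 34797 genes by Benjamini-Hochberg. Arrays of a group are stated to be biological replicates, so the tests measure the spread between them. Whether a lesion array and a skin array came from the same mice is not stated, and the number of arrays limits the precision. The scanner intensities of 55155 probes were log2 transformed and quantile normalized as an alternative. The fit was tested on simulated data. All 10 members are named, with up to 5 called genes of each other list by the size of the fold change, or those of the highest level, and the 5 genes most alike; Runx1 and Csf3r were named after their values were seen. Some genes of the lists are counted but not reported here by name. The members, gene lists and alternatives were chosen with earlier results of these data known. The alternatives concern the unit, filters, slide, replicate number, source, scaling and single arrays.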

Additional observations from a re-analysis of the deposited data

How the results depend on the processing

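The count of members called depended on how slides were handled and on the source. In papilloma versus papilloma skin it was 7, and it was 2 (Camp and Ngp) with slide as a term, 4 without papilloma skin 1 and tumor 1 (Camp, Ngp, Ltf and Itgb2l), and 0 in each of the 5 scanner fits (quantile normalization with and without a slide term, the 75th percentile, normexp with an offset of 50, and the 6 arrays of full spike-in slope). In tumor versus tumor skin it was 4, and it was 2 with slide as a term, again Camp and Ngp, and 0 in each of the scanner fits to all 9 arrays. In these limma gave 660 to 1682 genes of 34566 at an unadjusted p under 0.05. A share of 0.05 is expected there where no gene differs. The only called value to turn was that of Mpo in papilloma versus papilloma skin, at 0.0472 in the quantile normalized scanner files, and the cause was not tested. Leaving out 1 array at a time gave 4 to 7 in papilloma versus papilloma skin, the 4 without papilloma skin 1, 3 to 4 in tumor versus tumor skin, 0 to 1 in tumor skin versus papilloma skin, the 1 being Mpo without papilloma skin 2, and 0 in tumor versus papilloma and in the difference of the stages. Such a fit assumes that a lone array varies like the other groups. Over all genes 1251 were called in papilloma versus papilloma skin, against 766 with slide as a term, 438 with the replicate block and 818 without both doubted columns, and 1516 in tumor versus tumor skin, against 203 with slide as a term and 582 with the block. Tumor versus papilloma gave 211, 0 with slide as a term and 9 with the block, and tumor skin versus papilloma skin 131, 0 and 2. Leaving out 1 array gave 910 to 1305 genes in papilloma versus papilloma skin, 603 (without tumor 2) to 1534 in tumor versus tumor skin, 45 (without papilloma 3) to 220 in tumor versus papilloma, 1 (without papilloma skin 1) to 27 in tumor skin versus papilloma skin, and 0 to 8 for the difference of the stages, from 31. Filters on level, fold and dim probes, the mean over probes and probes as the unit kept the counts at 6 to 7 and 4 to 5.

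No label says what a replicate number marks, and each comparison shares only 2 numbers. The numbers matched the slides on every array but tumor skin 2, which lay on slide 3. In papilloma versus papilloma skin a shared slide and a shared origin therefore cannot be told apart. Deviations from the group means of same-numbered arrays correlated positively between a lesion and its own skin, at 0.218 and 0.574 for papilloma and 0.417 for tumor, and at -0.94 to -0.20 between the other groups, so that a shared origin of a lesion array and its skin array was not settled. With the number as a replicate block, 2 members, Camp and Ngp, were called in each lesion against its skin. With the numbers of tumor skin crossed, a fit added after seeing the data, tumor skin versus papilloma skin gave 0 members and 2 genes called, as with the block uncrossed.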
